A study of Mus musculus with 34 samples.

Results

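The receptor tyrosine kinases TYRO3, AXL and MERTK form the TAM family, and GAS6 and PROS1 (protein S) are its ligands. Their 5 genes, Axl, Tyro3, Mertk, Gas6 and Pros1, were taken by name, with earlier results of these data known. All 5 were among the 14107 genes with counts. Transcript levels were measured by RNA sequencing in the 3 NaJa lines (NaJa-D, -F and -G) of mouse colorectal cancer, each given 0.5 µM encorafenib, which inhibits mutant BRAF, or its solvent DMSO for 1 day or 5 days. Agent and medium were renewed on days 2 and 4 in the 5-day treatments. The 34 libraries formed 12 groups of 3, except NaJa-F with encorafenib at day 5 and NaJa-G in DMSO at day 5, which had 2 libraries each. Every group, the DMSO controls included, was of C57BL/6N background and carried the VillinCreERT2 transgene, BrafV600E/+, Trp53R172H and APCdel. The Villin promoter restricts Cre to the intestinal epithelium, and the lines were taken by peritoneal lavage from 3 mice that had received recombined colon organoids, so each line is a single isolate. The labels do not say that replicates were separate cultures, and the p-values therefore measure the spread between these libraries, which may be technical.

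The libraries held 46007050 to 80121299 counts. Reads per library were 1404 to 52813 for Axl, 940 to 3580 for Tyro3, 721 to 7376 for Gas6, 22 to 171 for Mertk and 13 to 468 for Pros1. Averaged over genes, the variance between 2 replicates of a group was 3.32 to 86.6 times that of counting alone. The highest value was for replicates 1 and 3 of NaJa-D with encorafenib at day 1. In that average the number of reads alone therefore did not set the precision. This need not hold for genes with few reads, such as Mertk and Pros1. One library of the group NaJa-D, DMSO, day 1 (replicate 3) bears NaJa-D in its title and NaJa-G in its cell line entry. Its log2 levels correlated with the other libraries of its titled group at r = 0.995 and with NaJa-G in DMSO at day 1 at no more than 0.920, and it was kept under its title. All 12 epithelial markers looked for were in the table, with summed levels, in counts per 1000000 counts of the library (CPM), of 9247 to 14793 for NaJa-D, 5893 to 9513 for NaJa-F and 2772 to 5670 for NaJa-G. Of 12 macrophage markers only Cd68, Csf1r, Cd14 and Mrc1 were in the table (summed level 23.6 to 48.8 CPM over all libraries), while Ptprc, Adgre1, Tyrobp, Fcer1g, Lyz2, C1qa, C1qb and Itgam were not. These are bulk libraries, in which fewer cells of a type and less RNA per cell cannot be told apart.

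TAM receptors have an extracellular part of immunoglobulin-like and fibronectin-like domains and an intracellular kinase. Their ligands carry a vitamin K-dependent, gamma-carboxylated domain that binds phosphatidylserine on dying or activated cells, and so bridge that lipid to the receptor. GAS6 binds all TAM receptors, with the highest affinity for AXL, whereas PROS1, better known as an anticoagulant in plasma, acts through TYRO3 and MERTK. In phagocytes MERTK drives the uptake of dead cells, and in carcinomas AXL is commonly linked to epithelial-mesenchymal transition and tolerance of targeted drugs.

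On the GRCm38 build Axl (ENSMUSG00000002602) lies at chr7:25757273-25788705 on the minus strand and Tyro3 (ENSMUSG00000027298) at chr2:119797733-119818104 on the plus strand. Mertk (ENSMUSG00000014361) lies at chr2:128698956-128802894 and Pros1 (ENSMUSG00000022912) at chr16:62854307-62929346, both on the plus strand, and Gas6 (ENSMUSG00000031451) at chr8:13465374-13494490 on the minus strand. All are protein-coding genes, with 5033 (Axl), 6198 (Tyro3), 4336 (Mertk), 2548 (Gas6) and 4088 (Pros1) bases of merged exons. Gas6 shares 34 exon bases with Tmem255b on the other strand, a gene not in the table, and the strand setting of the counting is not known. The promoter windows below, 250 bases before to 50 bases after the RefSeq start (GRCm38.p6), are shown for the receptor with the widest range of levels over the lines, the receptor with the narrowest, and the ligand with the largest response to encorafenib. Capitals mark matches, on either strand, to the TEAD motif GGAATG and the SP1 motif GGGCGG. Overlapping SP1 matches run together. The windows are chr7:25788684-25788983 (minus strand), chr2:119799264-119799563 (plus strand) and chr8:13494486-13494785 (minus strand), each written along the strand of its gene.
Axl: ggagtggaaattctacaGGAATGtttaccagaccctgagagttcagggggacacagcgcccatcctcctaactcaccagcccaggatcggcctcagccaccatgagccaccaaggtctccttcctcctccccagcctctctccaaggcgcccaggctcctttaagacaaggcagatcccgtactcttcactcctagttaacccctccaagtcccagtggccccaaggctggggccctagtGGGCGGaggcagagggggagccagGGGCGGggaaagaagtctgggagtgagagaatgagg
Tyro3: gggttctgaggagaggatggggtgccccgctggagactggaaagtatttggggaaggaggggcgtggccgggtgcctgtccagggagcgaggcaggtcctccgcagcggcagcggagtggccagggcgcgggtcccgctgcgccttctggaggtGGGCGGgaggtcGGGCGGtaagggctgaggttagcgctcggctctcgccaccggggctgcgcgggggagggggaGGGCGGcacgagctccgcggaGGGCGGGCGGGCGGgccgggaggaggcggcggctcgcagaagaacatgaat
Gas6: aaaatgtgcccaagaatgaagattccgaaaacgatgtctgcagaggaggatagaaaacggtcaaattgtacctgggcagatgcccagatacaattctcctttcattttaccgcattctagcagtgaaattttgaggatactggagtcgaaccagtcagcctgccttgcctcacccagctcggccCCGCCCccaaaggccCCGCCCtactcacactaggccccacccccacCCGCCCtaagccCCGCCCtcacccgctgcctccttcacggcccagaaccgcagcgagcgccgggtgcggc
The Axl window held 1 TEAD match, 233 bases before the start, 2 SP1 matches and 6 CpG sites. The Tyro3 window held 6 SP1 matches and 31 CpG sites, and the Gas6 window 4 SP1 matches and 17 CpG sites. The windows of Mertk and Pros1, which are not shown, held 4 and 5 SP1 matches. Of 32851 RefSeq promoter windows of the same length, 35.7% held the SP1 motif and 14.7% the TEAD motif. The AP-1 motif TGANTCA (in 7.81% of all windows) and the E-box CAGGTG (in 20.2%) had no match in any of the 5 windows. These are letter matches in a fixed window and were not linked to the expression values.

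**Figure D1:**
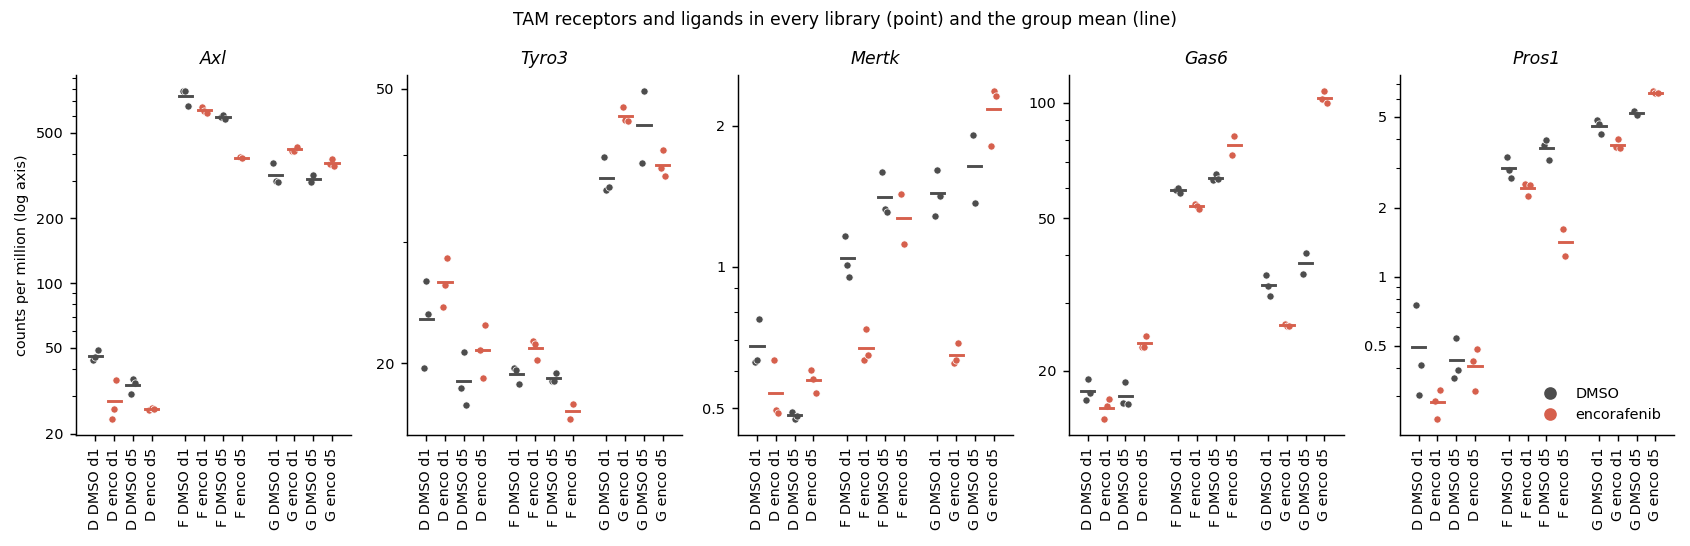
Levels of the 5 genes in every library (CPM, log axis), with groups on the horizontal axis, 1 point per library and the group mean as a bar. Axl separates NaJa-D (23.5 to 48.8 CPM) from NaJa-F and NaJa-G (294 to 784 CPM), and Gas6 is highest in NaJa-G after 5 days of encorafenib (100 to 108 CPM).

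The first question was how far the lines differed in TAM expression without the drug. NaJa-F and NaJa-G had more Axl, Mertk, Gas6 and Pros1 transcript than NaJa-D, and NaJa-G also had more Tyro3. Between NaJa-F and NaJa-G the order depended on the gene: NaJa-F had more Axl and Gas6, NaJa-G more Tyro3 and Pros1. Lines were compared over the DMSO libraries of both days (limma-voom, two-sided, called at a Benjamini-Hochberg adjusted p under 0.01 over all 14107 genes, with log2 fold changes ± SE). Called in NaJa-F against NaJa-D were 4 of the 5 genes, all higher, where 61.6% of all genes were called (32.6% higher and 29% lower). NaJa-G against NaJa-D gave 5 of 5, all higher (67.4% of all genes, 33.3% higher and 34.1% lower), and NaJa-G against NaJa-F 4 of 5, 2 higher and 2 lower (54.4% of all genes, 25.2% higher and 29.2% lower). These comparisons share the libraries of the line they have in common, and the lines are single isolates, so a line and its isolation cannot be told apart.

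Axl in NaJa-D measured 44.0, 45.6 and 48.8 CPM at day 1 and 30.6, 36.0 and 34.5 CPM at day 5. NaJa-F gave 779, 784 and 667 CPM at day 1 and 595, 606 and 579 CPM at day 5, and NaJa-G 364, 299 and 294 CPM at day 1 and 294 and 317 CPM at day 5. The lowest NaJa-F library thus exceeded the highest NaJa-G library, and all of both exceeded every NaJa-D library. The fitted differences were 4.08 ± 0.07 for NaJa-F against NaJa-D (16.9-fold, limma adjusted p = 5.12e-27), 2.99 ± 0.07 for NaJa-G against NaJa-D (7.92-fold) and -1.09 ± 0.07 for NaJa-G against NaJa-F (2.13-fold lower). The Axl difference between NaJa-F and NaJa-D was larger in size than that of 99.3% of all genes.

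Tyro3, the receptor best known from the nervous system, had the narrowest range. NaJa-D gave 19.7, 26.3 and 23.6 CPM at day 1 and 18.4, 20.7 and 17.4 CPM at day 5, and NaJa-F 18.7 to 19.7 CPM over both days. The libraries of these lines overlapped, and the difference of -0.11 ± 0.07 was not called (95% interval -0.25 to 0.02, limma adjusted p = 0.134). It changed sign, to 0.0077, when libraries were scaled by their totals alone, and to 0.024 with the day 5 libraries alone. NaJa-G stood above both with 39.9, 35.6 and 36.0 CPM at day 1 and 39.1 and 49.6 CPM at day 5, by 0.97 ± 0.07 against NaJa-D (limma adjusted p = 1.2e-13) and 1.08 ± 0.06 against NaJa-F (8.4e-15).

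Mertk was near the lower end of what was counted. NaJa-D gave 0.628, 0.633 and 0.776 CPM at day 1 and 0.491, 0.475 and 0.481 CPM at day 5. NaJa-F gave 1.17, 1.01 and 0.952 CPM at day 1 and 1.59, 1.33 and 1.31 CPM at day 5, and NaJa-G 1.28, 1.61 and 1.41 CPM at day 1 and 1.91 and 1.37 CPM at day 5. All NaJa-D libraries were lowest, with called differences of 1.06 ± 0.14 in NaJa-F (limma adjusted p = 9.16e-08) and 1.39 ± 0.14 in NaJa-G (4.03e-10). NaJa-F and NaJa-G overlapped, and their difference of 0.32 ± 0.11 was not called (95% interval 0.10 to 0.55, limma adjusted p = 0.0116).

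Gas6, the ligand shared by the receptors, measured 16.3 to 19.0 CPM in the 6 NaJa-D libraries. NaJa-F gave 59.1, 60.01 and 58.2 CPM at day 1 and 62.9, 65.2 and 63.3 CPM at day 5, and NaJa-G 35.6, 33.2 and 31.4 CPM at day 1 and 35.7 and 40.7 CPM at day 5. The lines did not overlap and had the same order as for Axl, NaJa-F over NaJa-G over NaJa-D. The differences from NaJa-D were 1.82 ± 0.05 in NaJa-F (3.53-fold, limma adjusted p = 2.82e-23) and 1.04 ± 0.05 in NaJa-G (2.05-fold, 1.87e-17).

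Pros1 in NaJa-D measured 0.754, 0.305 and 0.412 CPM at day 1 and 0.360, 0.540 and 0.392 CPM at day 5, from 13 counts upward. NaJa-F gave 3.33, 2.92 and 2.70 CPM at day 1 and 3.79, 3.98 and 3.24 CPM at day 5, and NaJa-G 4.83, 4.63 and 4.22 CPM at day 1 and 5.32 and 5.09 CPM at day 5. Here NaJa-G was highest, by 3.44 ± 0.15 against NaJa-D (10.8-fold, limma adjusted p = 5.88e-18) and 0.57 ± 0.08 against NaJa-F (5.54e-07). NaJa-F exceeded NaJa-D by 2.87 ± 0.15 (7.31-fold). Fibroblast markers, of which 6 of 8 were in the table (not Lum and Thy1), summed to 20.2 to 137 CPM in NaJa-G, against 2.62 to 8.92 CPM in NaJa-D and 4.84 to 9.11 CPM in NaJa-F over both treatments. Endothelial markers (2 of 6 in the table) summed to no more than 1.96 CPM in any library. In DMSO at day 1 mesothelial markers (3 of 5 in the table) summed to 1236 to 1514 CPM in NaJa-D. They gave 743 to 985 CPM in NaJa-F and 558 to 724 CPM in NaJa-G. Mesenchymal markers there gave 13760 to 15113 CPM in NaJa-D, 9661 to 10740 CPM in NaJa-F and 6763 to 7869 CPM in NaJa-G. In DMSO at day 5 they gave 8758 to 11168 CPM in NaJa-D, 7624 to 7803 CPM in NaJa-F and 7629 to 7871 CPM in NaJa-G. Such a sum is weighted to its most abundant members and does not rank the lines by state. The study describes NaJa-D as epithelial-like and NaJa-G as mesenchymal-like, with most vimentin, ZEB1 and N-cadherin protein in NaJa-G. The study describes a loss of host cells, fibroblasts included, over the passages of the lines. The part of such cells or programmes in these differences was not tested.

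**Figure D2:**
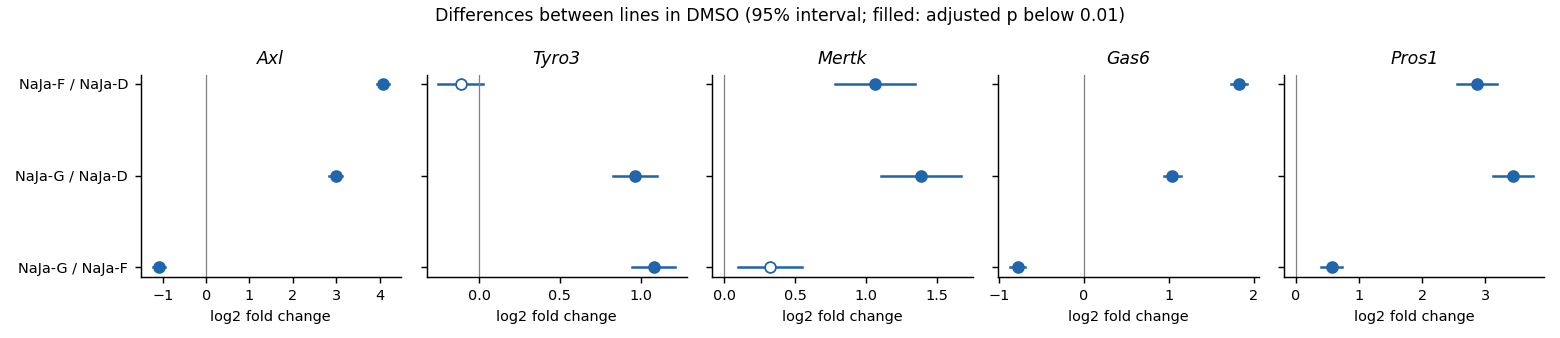
Log2 fold changes between lines in DMSO for the 5 genes (horizontal axis, limma-voom, bars are 95% intervals). Axl lies at 4.08 for NaJa-F against NaJa-D, the largest of the 15 values, and Tyro3 for the same lines and Mertk for NaJa-G against NaJa-F are the 2 that were not called.

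The next question was which receptor and ligand made up most of the pool. Levels of different genes were set side by side as TPM, that is counts per base of merged exon scaled to the same sum in each library, and compared only within libraries. In NaJa-F, Axl made up 96.2 to 97.8% of the summed TPM of the receptors in the group means, and in NaJa-G 89.0 to 91.7%. In NaJa-D its share was 70.2% ± 2.6 (SD, n = 3) in DMSO at day 1 and 68.0% ± 2.0 (SD, n = 3) at day 5, and most of the rest was Tyro3, with 28.6% and 30.9%. With encorafenib the Axl share in NaJa-D was 56.1% ± 3.4 (SD, n = 3) at day 1 and 59.7% ± 2.1 (SD, n = 3) at day 5. No library of either encorafenib group (53.6 to 61.9%) reached the DMSO libraries (66.3 to 72.5%). The Mertk share did not exceed 1.68% in any library. Per coding length in place of exon length the Axl shares in NaJa-D were 66.5, 64.1, 51.7 and 55.5%, in the same order of groups.

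Of the summed TPM of Gas6 and Pros1, Gas6 made up nearly all. Its mean share was 98.3 to 98.9% in NaJa-D, 96.5 to 98.9% in NaJa-F and 91.8 to 96.3% in NaJa-G. Pros1 was thus a minor part, largest in NaJa-G with 7.85% ± 0.14 (SD, n = 3) in DMSO at day 1, 7.87% ± 0.90 (SD, n = 2) in DMSO at day 5 and 8.24% ± 0.44 (SD, n = 3) with encorafenib at day 1. After 5 days of encorafenib it was 3.72% ± 0.15 (SD, n = 3). In NaJa-G at day 5 mean Gas6 was 103 CPM with encorafenib and 38.2 CPM in DMSO, and mean Pros1 was 6.39 and 5.20 CPM. These shares depend on the length used: per coding length the same 4 Pros1 shares were 12.01, 12.03, 12.6 and 5.83%. Lgals3, which encodes galectin-3, a lectin described as a further ligand of MERTK, was not part of this sum. Its group means lay between 178 and 842 TPM, and in each of the 12 groups Lgals3 was above Gas6 and Pros1 together.

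**Figure D3:**
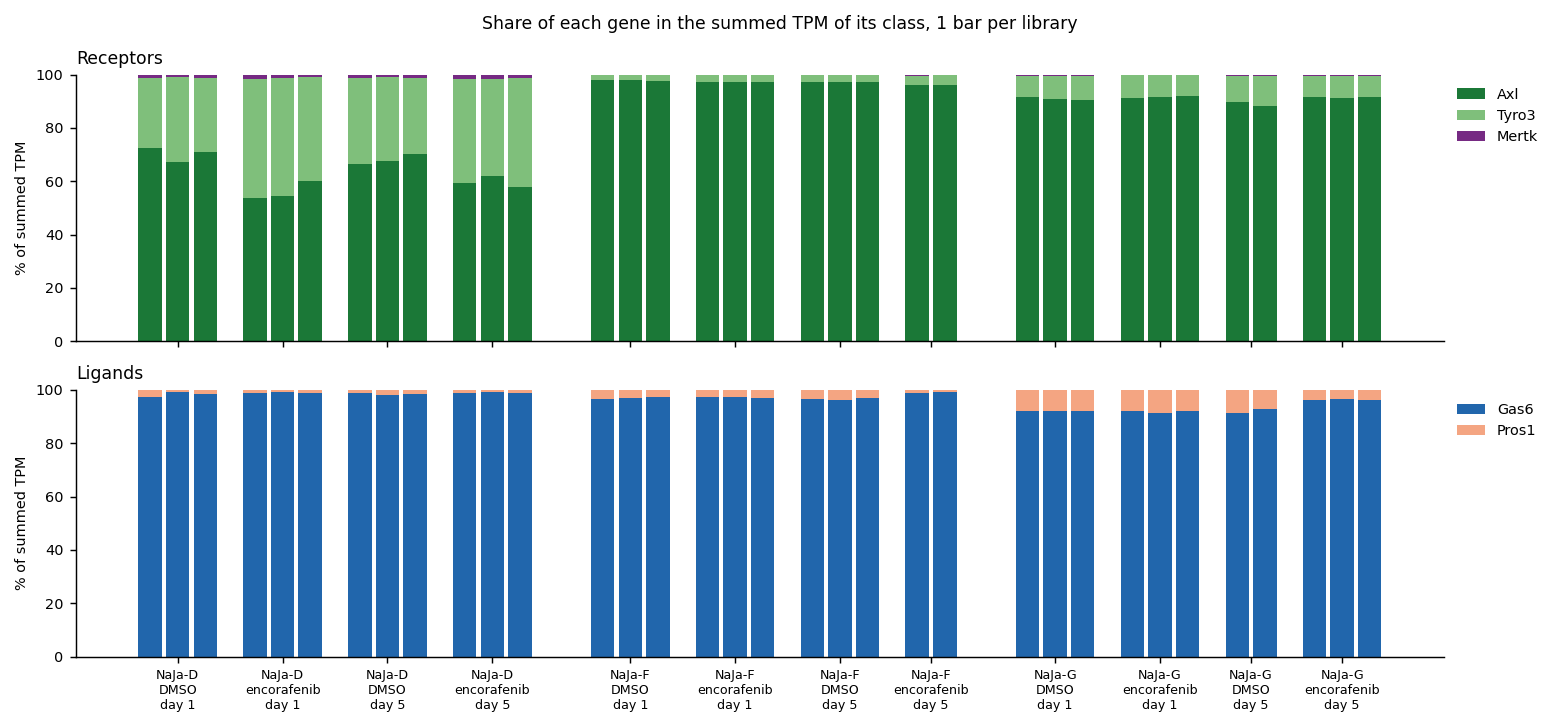
Shares of each receptor in the summed receptor TPM and of Gas6 and Pros1 in the TPM of both together (percent, 1 stacked bar per library, axis from 0 to 100). Tyro3 takes 26.3 to 44.7% in NaJa-D libraries, and Pros1 takes 3.54 to 3.82% in NaJa-G libraries after 5 days of encorafenib.

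Encorafenib was then compared with DMSO of the same line and day. Axl fell in NaJa-D at both days and in NaJa-F at day 5, and rose in NaJa-G at day 1. Gas6 rose in all 3 lines at day 5, most in NaJa-G, and fell in NaJa-G at day 1. Mertk fell at day 1 in NaJa-F and NaJa-G, Tyro3 rose in NaJa-G at day 1, and Pros1 fell in NaJa-F at day 5. Of the 5 genes, 1 was called in NaJa-D at day 1, where 44.9% of all genes were called (23.7% higher and 21.2% lower), and 2 at day 5 (33%, with 18.3% higher and 14.7% lower). NaJa-F had 1 at day 1 (29.5% of all genes, 17.5% higher and 12% lower) and 3 at day 5 (18.2%, with 9.7% higher and 8.5% lower). NaJa-G had 4 at day 1 (64% of all genes, 35.3% higher and 28.7% lower) and 1 at day 5 (53.2%, with 28.5% higher and 24.7% lower).

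Axl with encorafenib in NaJa-D measured 23.5, 26.1 and 35.6 CPM at day 1 and 25.8, 26.2 and 26.1 CPM at day 5, below every DMSO library of the same day. The fall was 0.73 on the log2 scale at day 1 (SE 0.10, limma adjusted p = 3.67e-07). At day 5 it was 0.36 (SE 0.10, limma adjusted p = 0.00363). Leaving out any of the 6 libraries but DMSO replicate 1 ended that day 5 call, with values of -0.37 to -0.32 and a limma adjusted p of up to 0.0228. In NaJa-F the encorafenib libraries gave 663, 630 and 616 CPM at day 1 and 388 and 380 CPM at day 5. Both sets lay below the DMSO libraries of their day, but only day 5 was called, with -0.63 ± 0.10 (limma adjusted p = 3.26e-05, 1.54-fold lower), and day 1 was -0.22 ± 0.10 (95% interval -0.42 to -0.02, limma adjusted p = 0.0682).

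In NaJa-G Axl was higher with encorafenib. The libraries gave 412, 414 and 431 CPM at day 1 and 359, 379 and 351 CPM at day 5, each set above its DMSO libraries. The rise at day 1 was 0.40 ± 0.09 (1.32-fold, limma adjusted p = 0.000339), and day 5 was not called (0.25 ± 0.10, 95% interval 0.04 to 0.46, limma adjusted p = 0.0367). The difference between the responses was itself called for NaJa-G against NaJa-D (1.13 ± 0.13 at day 1, where 36.4% of all genes were called) and against NaJa-F (0.62 ± 0.13 at day 1, where 33.5% were). At day 5 it was called too, with 0.61 ± 0.14 against NaJa-D (21.9% of all genes) and 0.88 ± 0.15 against NaJa-F (24.2%). Without replicate 1 of NaJa-G in DMSO at day 5 the day 5 difference from NaJa-D was no longer called (limma adjusted p = 0.011). Between NaJa-F and NaJa-D the responses of Axl were not called different at day 1 (0.51 ± 0.14, 95% interval 0.23 to 0.79, limma adjusted p = 0.0108) or day 5 (-0.26 ± 0.14, 95% interval -0.56 to 0.03). Of all genes 8.79% and 8.85% were called there.

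Tyro3 moved little. In NaJa-G at day 1 the encorafenib libraries gave 47.0, 45.1 and 44.9 CPM, above all DMSO libraries, a rise of 0.30 ± 0.08 (limma adjusted p = 0.00156). Without replicate 2 of the DMSO group the adjusted p was 0.0108. At day 5 NaJa-G gave 38.3, 40.8 and 37.3 CPM, overlapping DMSO (-0.19 ± 0.09, limma adjusted p = 0.0658, not called), although without DMSO replicate 1 the value was -0.36 and called. The responses at the 2 days differed by -0.48 ± 0.12 (limma adjusted p = 0.00159), a call lost without DMSO replicate 3 of day 5 (-0.31). With encorafenib NaJa-D gave 24.1, 26.0 and 28.5 CPM at day 1 and 20.9, 19.1 and 22.7 CPM at day 5, and NaJa-F 21.6, 21.3 and 20.2 CPM at day 1 and 16.6 and 17.5 CPM at day 5. In NaJa-D and NaJa-F the Tyro3 differences lay between -0.16 and 0.18, none was called, and their 95% intervals together spanned -0.38 to 0.37.

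Mertk at day 1 measured 0.635, 0.736 and 0.649 CPM with encorafenib in NaJa-F and 0.625, 0.634 and 0.688 CPM in NaJa-G. Both sets lay below all DMSO libraries of their line and day and within the range of NaJa-D. The fall was 1.13 in NaJa-G on the log2 scale (SE 0.17, limma adjusted p = 1.19e-06, 2.20-fold lower) and 0.61 in NaJa-F (SE 0.18, limma adjusted p = 0.00665). Leaving out any of the 6 NaJa-F libraries but DMSO replicate 3 ended the call there, with values of -0.68 to -0.54. DESeq2 did not call it (-0.62, DESeq2 adjusted p = 0.0116). At day 5 NaJa-G gave 1.81, 2.37 and 2.32 CPM, overlapping DMSO, with 0.43 ± 0.15 (95% interval 0.13 to 0.73, limma adjusted p = 0.0118, not called). It was called without DMSO replicate 1 (0.65) or without encorafenib replicate 1 (0.55). In NaJa-F at day 5 the libraries gave 1.43 and 1.12 CPM, also overlapping DMSO (-0.15, 95% interval -0.51 to 0.20), and the value was 0.0049 without encorafenib replicate 2. The responses at the 2 days differed in NaJa-G by 1.56 ± 0.23 (limma adjusted p = 2.24e-06, where 31.7% of all genes were called). In NaJa-D, at 0.489 to 0.632 CPM with encorafenib over both days, Mertk was not called at day 1 (-0.32, 95% interval -0.78 to 0.13) or day 5 (0.24, 95% interval -0.21 to 0.70).

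Gas6 at day 5 of encorafenib measured 102, 108 and 100.04 CPM in NaJa-G, 73.2 and 81.9 CPM in NaJa-F and 23.1, 23.0 and 24.7 CPM in NaJa-D. Each set lay above all DMSO libraries of its line and day. NaJa-G rose most, by 1.43 ± 0.06 (2.70-fold, limma adjusted p = 1.74e-17). NaJa-D rose by 0.46 ± 0.07 (1.38-fold, limma adjusted p = 1.87e-06) and NaJa-F by 0.28 ± 0.06 (1.21-fold, limma adjusted p = 0.000739). Without replicate 2 of the encorafenib group the NaJa-F value was 0.18 and no longer called (limma adjusted p = 0.0781). The rise in NaJa-G exceeded that in NaJa-D by 0.97 ± 0.09 and that in NaJa-F by 1.16 ± 0.09 on the log2 scale (limma adjusted p = 2.34e-09 and 2.44e-11).

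At day 1 Gas6 went the other way in NaJa-G, with 26.4, 26.1 and 26.2 CPM, all below DMSO, a fall of 0.35 on the log2 scale (SE 0.06, limma adjusted p = 8.41e-06). In NaJa-D (15.0, 16.2 and 16.8 CPM, -0.15, 95% interval -0.30 to -0.0016) and NaJa-F (54.5, 53.8 and 53.0 CPM, -0.14, 95% interval -0.25 to -0.02) day 1 was not called. The day 5 response exceeded the day 1 response in each line, by 1.78 ± 0.09 for NaJa-G (where 31.7% of all genes were called), 0.62 ± 0.10 for NaJa-D (7.29%) and 0.42 ± 0.08 for NaJa-F (5.88%). The NaJa-F call was lost without replicate 2 of encorafenib at day 5, at 0.32.

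In NaJa-G at day 5 the summed levels of several marker lists also differed between encorafenib and DMSO. The fibroblast list summed to 20.2 to 22.9 CPM in DMSO and 121 to 137 CPM with encorafenib. Among its members Dcn, which encodes the matrix proteoglycan decorin, rose from 0.117 to 0.360 CPM to 11.97 to 12.9 CPM, and Col1a1, a type I collagen chain, from 9.92 to 12.1 CPM to 66.2 to 78.4 CPM. The mesothelial list (3 of 5 in the table, not Upk1b and Wt1) went from 497 to 565 CPM to 1535 to 1744 CPM. The mesenchymal list (8 of 9, not Twist2) went from 7629 to 7871 CPM to 14373 to 15236 CPM, and the macrophage list from 33.76 to 33.98 CPM to 23.6 to 26.0 CPM. The 12 epithelial markers summed to 2772 to 3303 CPM in DMSO and 3569 to 3803 CPM with encorafenib. At day 1, where Gas6 fell in NaJa-G, the fibroblast list went from 57.6 to 78.0 CPM to 95.6 to 112 CPM. The mesothelial list there went from 558 to 724 CPM to 1328 to 1523 CPM, and the macrophage list from 36.7 to 39.2 CPM to 25.1 to 27.2 CPM. The mesenchymal list overlapped at day 1, with 6763 to 7869 CPM in DMSO and 7733 to 7883 CPM with encorafenib. The epithelial list went from 3551 to 4394 CPM to 5509 to 5670 CPM. In NaJa-D and NaJa-F the fibroblast, mesothelial and epithelial lists were also higher with encorafenib than in DMSO at each day. The fibroblast list at day 5 went from 2.82 to 3.44 CPM to 8.37 to 8.92 CPM in NaJa-D. In NaJa-F it went from 6.00 to 6.80 CPM to 8.30 to 9.11 CPM. The mesenchymal list was lower in both lines at day 1. At day 5 it overlapped DMSO in NaJa-D and went from 7624 to 7803 CPM to 10384 to 10803 CPM in NaJa-F. The part of these cell types or programmes in the Gas6 result was not tested.

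Pros1 at day 5 of encorafenib measured 1.61 and 1.23 CPM in NaJa-F and 6.50, 6.34 and 6.35 CPM in NaJa-G. The NaJa-F libraries lay below, and the NaJa-G libraries above, all DMSO libraries of their line. The fall in NaJa-F was 1.37 on the log2 scale (SE 0.17, 2.59-fold lower, limma adjusted p = 2.97e-07), and NaJa-G was not called (0.30 ± 0.10, 95% interval 0.08 to 0.51, limma adjusted p = 0.0145). The responses of these lines differed by 1.67 ± 0.20 (limma adjusted p = 1.26e-07). That of NaJa-F differed from NaJa-D by -1.28 ± 0.32 (limma adjusted p = 0.00625). That call was lost without replicate 1 or 3 of NaJa-D in DMSO, replicate 1 or 3 of NaJa-D with encorafenib, replicate 1 or 2 of NaJa-F in DMSO or replicate 2 of NaJa-F with encorafenib (-1.26 to -1.09), and with library quality weights (-1.14) or the compared groups alone (-1.26). At day 1 the encorafenib libraries gave 0.286, 0.240 and 0.320 CPM for NaJa-D, 2.55, 2.25 and 2.52 CPM for NaJa-F and 3.69, 4.02 and 3.64 CPM for NaJa-G. Pros1 was not called there in any line: -0.72 ± 0.30 for NaJa-D (95% interval -1.34 to -0.10), -0.28 ± 0.13 for NaJa-F (95% interval -0.54 to -0.02) and -0.27 ± 0.11 for NaJa-G (95% interval -0.49 to -0.05). NaJa-D was called there without DMSO replicate 2 (-1.01), and by edgeR (-0.82, edgeR adjusted p = 0.00687) and DESeq2 (-0.84, DESeq2 adjusted p = 0.00824). In NaJa-D at day 5 Pros1 gave 0.427, 0.315 and 0.484 CPM, within the DMSO range apart from the lowest library (-0.09, 95% interval -0.65 to 0.48), and the sign turned without replicate 2 of the DMSO or of the encorafenib group.

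**Figure D4:**
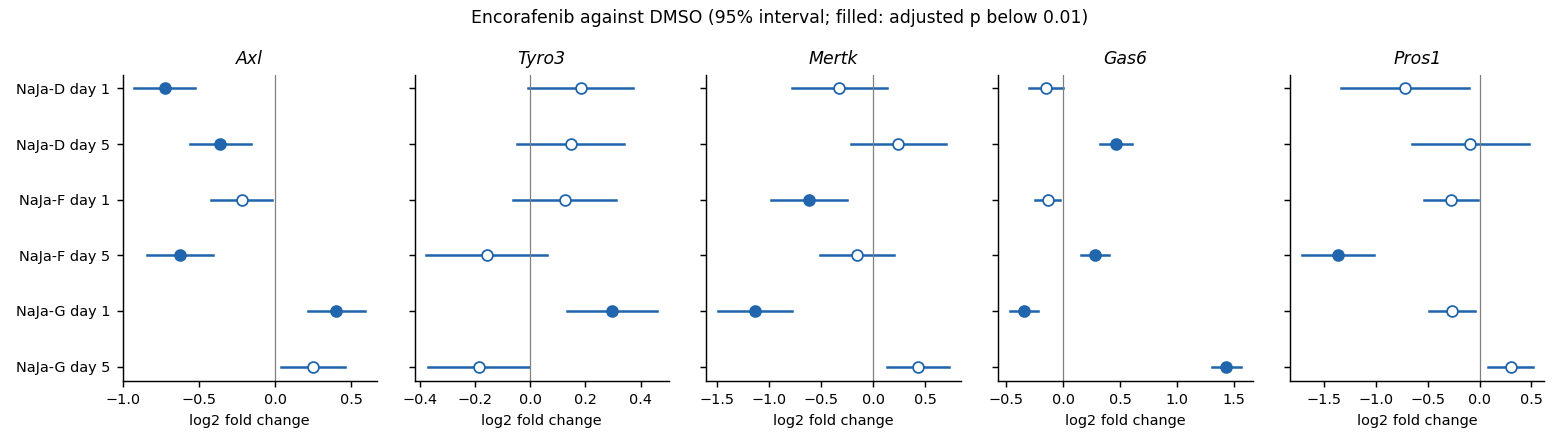
Log2 fold changes of encorafenib against DMSO at day 1 and day 5 in each line (limma-voom, bars are 95% intervals). Axl is below 0 in NaJa-D and NaJa-F and above 0 in NaJa-G at both days, and Gas6 is above 0 in every line at day 5, with 1.43 in NaJa-G.

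Time in culture was compared within each treatment. In DMSO, Axl in NaJa-D fell by 0.46 on the log2 scale from day 1 to day 5 (SE 0.10, limma adjusted p = 0.000374), and of the 15 values this was the 1 called. Of all genes 34.1% were called in NaJa-G, 29% in NaJa-D and 16.7% in NaJa-F. In encorafenib 9 of 15 were called, where 41% of all genes were called in NaJa-G, 26.7% in NaJa-D and 22.5% in NaJa-F. Gas6 rose by 1.97 ± 0.06 in NaJa-G, 0.56 ± 0.07 in NaJa-D and 0.53 ± 0.06 in NaJa-F. Mertk rose in NaJa-G by 1.73 ± 0.16 and in NaJa-F by 0.90 ± 0.19 (not called without replicate 1 of day 5, 0.71), and Axl fell in NaJa-F by 0.73. Pros1 fell in NaJa-F by 0.79 (not called without replicate 2 of day 5, -0.63, or with quality weights, -0.77) and rose in NaJa-G by 0.75 ± 0.10. Tyro3 in NaJa-D fell by 0.33, a call lost without any of replicates 2 and 3 of day 1 and replicates 1 and 2 of day 5 (-0.33 to -0.26), and with library size alone (-0.22) or the compared groups alone (-0.31). The mean exon length of the gene behind a count also moved with day: in NaJa-G it was 5529 to 5723 bases in DMSO at day 1 and 5985 to 6281 bases at day 5, and with encorafenib 5804 to 5934 and 6290 to 6311 bases. A correction for length, chosen after seeing the data, ended 1 of these calls, that of Tyro3 in NaJa-D.

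Ordered by mean CPM, the 12 groups ran for Axl from NaJa-F in DMSO at day 1 (743 CPM) to NaJa-D with encorafenib at day 5 (26.1 CPM). Neighbours overlapped between NaJa-G with encorafenib at day 5 and NaJa-G in DMSO at day 1, between the NaJa-G DMSO groups, and among the lowest 3 NaJa-D groups, from DMSO at day 5 down. For Gas6 the order ran from NaJa-G (103 CPM) and NaJa-F (77.5 CPM) with encorafenib at day 5 to NaJa-D with encorafenib at day 1 (16.0 CPM), and overlap was seen only among the 3 lowest NaJa-D groups. For Tyro3 all neighbours overlapped except at the step from NaJa-G in DMSO at day 1 (37.2 CPM) to NaJa-D with encorafenib at day 1 (26.2 CPM). Mertk ran from 2.17 CPM in NaJa-G with encorafenib at day 5 to 0.483 CPM in NaJa-D in DMSO at day 5, and Pros1 from 6.39 CPM in NaJa-G with encorafenib at day 5 to 0.282 CPM in NaJa-D with encorafenib at day 1.

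Across the means of the 12 groups, which share 3 lines, the Pearson correlation of Axl on the log2 CPM scale was 0.893 with Pros1, 0.808 with Gas6, 0.652 with Mertk and 0.186 with Tyro3. By Spearman correlation the order was another, with 0.706 for Gas6, 0.503 for Pros1, 0.385 for Mertk and -0.09 for Tyro3. Mertk had Pearson and Spearman values of 0.798 and 0.839 with Pros1 and 0.786 and 0.762 with Gas6. Among 10255 genes with a mean log2 CPM of at least 2, the patterns most like that of Axl were those of Bmp7, a secreted growth factor of the BMP family (r = 0.984), Ulbp1, a ligand of the receptor NKG2D (0.983), Paics, an enzyme of purine synthesis (0.982), Zfpm2 (0.981) and Ptgs2, the inducible cyclooxygenase (0.979). The order was not the same by Spearman correlation, where Paics came at rank 21 and Ptgs2 at rank 75. Most like Tyro3 were Lpar1, a receptor for lysophosphatidic acid (0.981), and Adam15 (0.977), which came at ranks 3 and 1 by Spearman correlation, then E430018J23Rik (0.975), Marveld1 (0.973) and Itga5, a subunit of the fibronectin receptor (0.969). For Mertk they were Zfp131 (0.931), Cep120, a centriole protein (0.929), Lpin2 (0.910), Iqcb1 (0.892) and Pogz (0.888). For Gas6 they were Fam168b (0.931), at rank 1 also by Spearman correlation, Arl13b, a GTPase of cilia (0.928), Adamts6, a secreted protease (0.921), Lrp11 (0.919) and Maml2, a co-activator of Notch (0.918). For Pros1 they were Arhgef38 (0.983), P2ry1, a receptor for ADP (0.981), Jam2, an adhesion molecule (0.977), Sept7, a septin (0.977) and Prrg1 (0.976).

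Genes that act with the TAM receptors were read from lists of 64 genes, of which 56 were in the table. The absent ones were Tub and Tulp1, which encode other TAM ligands, Vav1, Twist2, Timd4, Havcr1, Adgrb1 and Nr1h3. Called were 43 of 56 in NaJa-F against NaJa-D (25 higher and 18 lower), 41 in NaJa-G against NaJa-D (28 and 13) and 34 in NaJa-G against NaJa-F (17 and 17). These are shares of 76.8%, 73.2% and 60.7%, where 61.6%, 67.4% and 54.4% of all genes were called. The median log2 fold changes over the 56 genes were 0.11, 0.21 and 0.06, and over all genes 0.02, 0.008 and -0.007.

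The 3 genes of ligand carboxylation, the step that makes GAS6 and PROS1 able to bind phosphatidylserine, were all lower in NaJa-F and in NaJa-G than in NaJa-D, the opposite direction to the ligands. Vkorc1, the vitamin K epoxide reductase, lay at 1.30 to 2.07 CPM over the NaJa-D libraries of both days, and was lower by -0.76 ± 0.20 in NaJa-F and by -0.73 ± 0.20 in NaJa-G, where the call was lost without replicate 1 of the day 5 group (-0.59). Of 14 adaptor and engulfment genes in the table, 9 were higher and 1 lower in each of these lines, beside 32.6% higher and 29% lower of all genes for NaJa-F. For NaJa-G the shares of all genes were 33.3% and 34.1%. Elmo1, which activates the GTPase RAC1 together with DOCK1, was higher in NaJa-F by 2.90 ± 0.14. Among the 12 candidate regulators of Axl, 5 were higher and 4 lower in NaJa-F, and 5 higher and 3 lower in NaJa-G. Tead2, a partner of the co-activators YAP and TAZ, was higher by 1.59 ± 0.08 in NaJa-F and 2.01 ± 0.08 in NaJa-G. The sheddase Adam17, which can release the AXL ectodomain, was lower by -0.66 ± 0.05 and -0.88 ± 0.05. Adam10, the other of the 2 sheddases listed, was called lower in NaJa-F and higher in NaJa-G. The NaJa-G sign of Adam10 turned with the day 1 libraries alone. Abca1, a cholesterol exporter controlled by the same nuclear receptors as MERTK, was higher by 2.77 ± 0.12 and 4.18 ± 0.12.

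With encorafenib the listed genes called numbered 25 of 56 in NaJa-D at day 1 (17 higher and 8 lower) and 24 at day 5 (15 and 9). NaJa-F had 20 at day 1 (15 and 5) and 9 at day 5 (4 and 5), and NaJa-G 42 (33 and 9) and 37 (24 and 13). As shares, to be read against those of all genes above, these were 44.6% and 42.9% for NaJa-D, 35.7% and 16.1% for NaJa-F, and 75% and 66.1% for NaJa-G. Of the 10 other phosphatidylserine receptors in the table, 7 were higher and 0 lower in NaJa-G at each day. Of all genes 35.3% were higher and 28.7% lower there at day 1, and 28.5% and 24.7% at day 5. The median of the 56 genes in NaJa-G was 0.29 and 0.16, and of all genes 0.04 and 0.01. Of the same receptors 5 were higher and 1 lower in NaJa-D after 1 day (23.7% and 21.2% of all genes). After 5 days 5 were higher and 0 lower (18.3% and 14.7%). NaJa-F had 4 higher and 1 lower after 1 day (17.5% and 12%), but 1 higher and 0 lower after 5 days (9.7% and 8.5%).

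In DMSO the Lgals3 level of NaJa-G exceeded that of NaJa-D by 1.14 ± 0.05 on the log2 scale and that of NaJa-F by 0.99 ± 0.05. The difference of NaJa-F from NaJa-D was 0.15 ± 0.05, with overlapping libraries, and its call was lost with edgeR (0.15), DESeq2 (0.13) and the day 5 libraries alone (0.04). With encorafenib Lgals3 rose at day 1 in NaJa-G by 0.83 ± 0.07 and in NaJa-F by 0.42 ± 0.07 (limma adjusted p of up to 1.66e-05), and was not called in NaJa-D (0.05). At day 5 it fell in NaJa-G by 0.77, in NaJa-D by 0.41 and in NaJa-F by 0.39 on the log2 scale (limma adjusted p of up to 0.000252). Lgals3 and Gas6 thus had opposite signs in every line at each day. At day 1 the Gas6 change was called only in NaJa-G, and the Lgals3 change was not called in NaJa-D.

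The named phosphatidylserine receptors started from low levels. Stab1, the scavenger receptor stabilin-1, lay at 2.09 to 3.09 CPM in NaJa-G in DMSO at day 1 and 21.6 to 25.4 CPM with encorafenib, a rise of 3.13 ± 0.14. Cd36, which takes up oxidised lipids and dying cells, rose in NaJa-D by 5.04 ± 0.21 at day 5, from 0.367 to 0.517 CPM to 14.7 to 16.6 CPM. In NaJa-G Cd36 was also called higher, but stayed at 0.844 CPM or less in every library. Stab2 rose in NaJa-G at day 5 by 3.10 ± 0.30, from 0.277 to 0.334 CPM to 2.35 to 2.94 CPM.

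Among the regulators, Fosl1, a subunit of AP-1 and a target of the ERK pathway, fell with encorafenib in NaJa-G by 3.15 at day 1 and 1.73 at day 5, in NaJa-F by 1.22 and 0.65, and in NaJa-D by 0.87 and 0.45, all on the log2 scale (limma adjusted p of up to 0.000303). Jun, its partner, rose in NaJa-G at day 1 by 1.29 ± 0.14. Socs1, a feedback inhibitor of cytokine signalling induced through TAM receptors in dendritic cells, fell in NaJa-G by 2.11 at day 1 and 2.59 at day 5. Elmo1 rose in NaJa-G by 2.47 ± 0.17 and 3.11 ± 0.19, from 0.748 CPM or less in DMSO, and in NaJa-F by 1.56 ± 0.09 and 0.84 ± 0.10. Atp11a, a flippase that returns phosphatidylserine to the inner leaflet, rose in NaJa-G by 1.06 ± 0.05 and 1.56 ± 0.06, to 334 to 362 CPM at day 5.

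**Figure D5:**
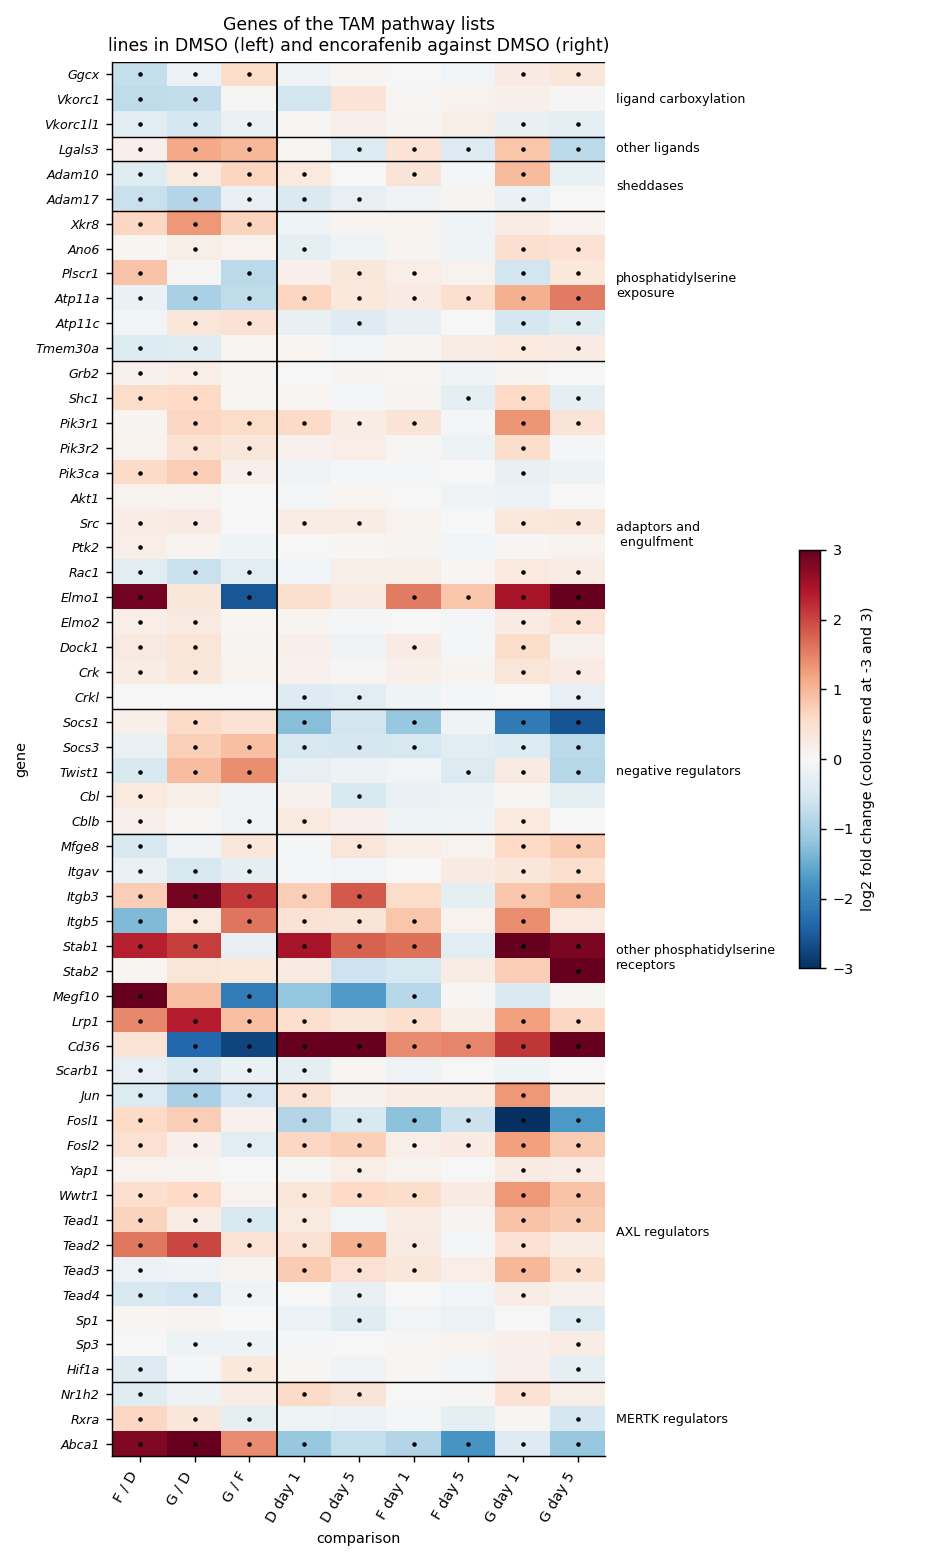
Log2 fold changes of the listed TAM pathway genes in the table (rows, by list) in the line and encorafenib comparisons (columns), with called values marked. Fosl1 is negative and called in all 6 encorafenib columns, from -0.45 to -3.15. Of the other phosphatidylserine receptors 7 of 10 are called higher in NaJa-G at each day, where 35.3% (day 1) and 28.5% (day 5) of all genes are.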

How the data were processed

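RNA was taken from 34 libraries of 12 groups, and the table holds raw counts per gene and library as deposited by the authors. Reads were trimmed with Trimmomatic 0.39 and aligned to GRCm38/mm10 with STAR 2.5.2b per the submitters' processing notes. The counting program, the annotation release and the strand setting are not given in the sources used here. The study's methods keep genes with a summed count above 2. The smallest summed count among the 14107 genes of the table was 360, so a stricter limit, which is not given in the sources used here, had been applied, and an absent gene may be one below it. In the study's methods limma, TMM scaling and an adjusted p under 0.01 were used. Whether voom was used is not stated.

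Libraries were grouped by title. Counts were TMM-scaled (edgeR 4.0.16) and fitted with limma-voom (limma 3.58.1, R 4.3.3) as 12 group means, which share 1 estimate of the spread per gene. Within this fit 24 two-sided comparisons were made: 3 between lines over DMSO of both days, 6 of encorafenib against DMSO, 6 of day 5 against day 1 and 9 between responses. Benjamini-Hochberg adjustment ran over all 14107 genes in each. CPM used the TMM-scaled totals. For the likeness of patterns, log2 CPM values (prior count 2) were averaged by group. Symbols, positions and exon lengths came from GENCODE M21 for 14064 genes (43 had none), and promoter windows from RefSeq. TPM used merged exon length.

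Results were recomputed with DESeq2 1.42.0, limma-trend, the quasi-likelihood test of edgeR, weights for library quality, other scalings, a filter on low counts, a threshold of 0.05, the compared groups alone, single days, each library left out, a replicate block and, chosen after seeing the data, corrections for GC content and gene length. On counts simulated for encorafenib against DMSO in NaJa-D at day 1 with all 14107 genes, voom recovered 183 of 200 changed genes (86 of those changed 2-fold and 97 of those changed 4-fold) with 1 false call, edgeR 183 with 2 and DESeq2 186 with 4. With a trend on gene length added to these simulated counts voom recovered 191 with 1852 false calls, and 182 with 0 after the length correction. All other differences between the 12 groups were removed from the simulated counts, and only the 200 genes were changed. In the data 6335 genes (44.9%) were called in this comparison. The simulated rates therefore may not hold for these data, or for changes under 2-fold.

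Named genes were the 5 members, in each pathway list the 2 called genes with the largest change in the comparison described, and the 5 genes most like each member. Fosl1 in NaJa-D at day 5, and the marker genes, were added to these after their values were seen. The members and lists were chosen with earlier results of these data known. Intervals are 95% intervals of the fit.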

Additional observations from a re-analysis of the deposited data

Results flagged for a closer look

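Differences between responses were tested as such, in the same limma-voom fit, and 15 of 45 were called for the 5 genes, where 5.88 to 36.4% of all genes were called in the 9 comparisons. Each is a difference of log2 fold changes of encorafenib against DMSO, and comparisons within a line share libraries. The Axl response of NaJa-G exceeded that of NaJa-D by 1.13 ± 0.13 at day 1 and 0.61 ± 0.14 at day 5. It exceeded that of NaJa-F by 0.62 ± 0.13 at day 1 and 0.88 ± 0.15 at day 5. At day 1 the Axl responses were 0.40 for NaJa-G, -0.22 for NaJa-F and -0.73 for NaJa-D, so the 2 called changes were of opposite sign.

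The Gas6 response of NaJa-G at day 5 exceeded that of NaJa-D by 0.97 ± 0.09 and that of NaJa-F by 1.16 ± 0.09. From day 1 to day 5 the Gas6 response went up by 1.78 ± 0.09 in NaJa-G, 0.62 ± 0.10 in NaJa-D and 0.42 ± 0.08 in NaJa-F. In NaJa-G the Mertk response went up by 1.56 ± 0.23 over the same days, and that of Tyro3 changed by -0.48 ± 0.12.

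The Pros1 response of NaJa-G at day 5 exceeded that of NaJa-F by 1.67 ± 0.20, and that of NaJa-F differed from NaJa-D by -1.28 ± 0.32. From day 1 to day 5 the Pros1 response changed by -1.10 ± 0.21 in NaJa-F and by 0.57 ± 0.15 in NaJa-G. The NaJa-F value was not called without replicate 2 of encorafenib at day 5 (-0.91), and the NaJa-G value not without replicate 3 of DMSO at day 5 (0.53). NaJa-G was also not called with edgeR (edgeR adjusted p = 0.0404), limma-trend (limma adjusted p = 0.123) or quality weights (limma adjusted p = 0.0133), and NaJa-F not with limma-trend (0.0186) or quality weights (0.0112). Groups of 2 or 3 libraries are too small for a test of single outlying libraries.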

How the results depend on the processing

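Calls were compared over 70 values of the 5 genes. These were 15 between lines, 30 encorafenib responses, and the 15 response and 10 time differences that were called. Library quality weights added 6 calls and ended 4, and a threshold of 0.05 added 7. Pros1 in NaJa-D at day 1 of encorafenib, not called, passed with edgeR (-0.82), DESeq2 (-0.84) and limma-trend (-0.63), and Mertk in NaJa-F at day 1 failed with DESeq2 (-0.62). Library quality weights added calls for Tyro3 in NaJa-F against NaJa-D (-0.16) and, at day 1, for Gas6 in NaJa-D (-0.19), Axl, Gas6 and Pros1 in NaJa-F (-0.28, -0.14 and -0.37) and Pros1 in NaJa-G (-0.26), and ended 4 for Pros1 (1 over time and 3 response differences, -1.14 to 0.56). Limma-trend ended 2 of these differences and edgeR 1. Relative log expression scaling added Mertk in NaJa-G against NaJa-F (0.35) and at day 5 in NaJa-G (0.44). With library size alone Tyro3 in NaJa-F against NaJa-D turned to 0.0077, and Tyro3 in NaJa-D (0.26), Axl in NaJa-F (-0.24) and Pros1 in NaJa-G (-0.32) at day 1 passed, and Tyro3 over time in NaJa-D failed (-0.22). An adjusted p under 0.05 added Mertk in NaJa-G against NaJa-F (0.32), Pros1 in NaJa-D (-0.72), Gas6 in NaJa-F (-0.14) and Pros1 in NaJa-G (-0.27) at day 1, and Axl (0.25), Mertk (0.43) and Pros1 (0.30) in NaJa-G at day 5. Fitting the compared groups alone ended the calls of Mertk in NaJa-F at day 1 (-0.61), Gas6 in NaJa-F at day 5 (0.28), Tyro3 over time in NaJa-D (-0.31) and 1 Pros1 response difference (-1.26). With day 5 alone Tyro3 in NaJa-F against NaJa-D was 0.024, and with day 1 alone Adam10 in NaJa-G against NaJa-D turned from 0.29 to -0.20. Corrections added after seeing the data called Mertk in NaJa-G against NaJa-F (GC 0.36, length 0.34) and, for GC, Gas6 in NaJa-D at day 1 (-0.20) and Mertk in NaJa-G at day 5 (0.45), and length ended that of Tyro3 over time (-0.28). A filter on low counts changed no call of the 5 genes. The cause was not tested.

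Without 1 library each in turn, encorafenib values whose call or sign changed ranged from -0.43 to -0.32 (Axl, NaJa-D, day 5), -0.68 to -0.54 (Mertk, NaJa-F, day 1), -0.33 to 0.0049 (Mertk, NaJa-F, day 5), 0.17 to 0.65 (Mertk, NaJa-G, day 5), 0.18 to 0.35 (Gas6, NaJa-F, day 5), 0.27 to 0.35 and -0.36 to -0.015 (Tyro3, NaJa-G, day 1 and day 5), and -1.01 to -0.37 and -0.22 to 0.12 (Pros1, NaJa-D, day 1 and day 5). Mertk in NaJa-G against NaJa-F ranged from 0.21 to 0.45, called without replicate 1 of NaJa-F at either day, replicate 1 of NaJa-G at day 1 or replicate 3 of NaJa-G at day 5. Over all groups together, libraries with the same replicate number did not deviate alike by the median (176 pairs, median r = -0.008, 23 above 0.1). Their r ran from -0.51 to 0.336, and the median of the 353 other pairs was 0.006. Pairs of the same line and day were not looked at apart, so a pairing within them was not tested. With the replicate block 70 of 70 calls were the same, with 2467 in place of 2567 genes called for NaJa-F at day 5 of encorafenib.

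Some counts of all genes called moved by over 1.5 times. Quality weights took them from 4161 to 6756 (encorafenib, NaJa-F, day 1), over time in DMSO from 2361 to 6669 (NaJa-F) and 4804 to 2992 (NaJa-G), over time in encorafenib from 3772 to 6312 (NaJa-D) and 5779 to 8815 (NaJa-G), and for day 1 response differences of NaJa-G from 5134 to 8281 (NaJa-D) and 4724 to 7713 (NaJa-F). With the compared groups alone they went from 6335 to 3540 (encorafenib, NaJa-D, day 1), 4804 to 1182 (DMSO time, NaJa-G) and 3772 to 1270 (encorafenib time, NaJa-D). At 0.05 they went from 2361 to 4053 (DMSO time, NaJa-F), 3174 to 5394 (encorafenib time, NaJa-F), 1248 to 2207 and 3089 to 4642 (NaJa-D against NaJa-F and NaJa-G, responses at day 5), and 830 to 1414 (responses by day, NaJa-F). The day 1 response difference of NaJa-F and NaJa-D, with 1240 calls, gave 2143 with DESeq2, 3223 at 0.05, 4997 with quality weights, 415 with the compared groups alone and 645 to 3937 without 1 library, the highest without replicate 3 of NaJa-D with encorafenib at day 1. The response difference by day in NaJa-D, with 1029 calls, gave 2401, 3932, 261 and 581 to 3104 under the last 4 of these, the highest without that same library. Without 1 library there were also 1462 and 1572 (DMSO time, NaJa-F, without replicate 2 of day 1 or 3 of day 5), and 1673 (encorafenib time, NaJa-F) and 771 (day 5 responses, NaJa-F against NaJa-D) without replicate 1 of encorafenib at day 5.

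Library size alone moved the all-gene median by 0.14 (NaJa-F against NaJa-D), 0.13 (NaJa-G against NaJa-D) and, over time, 0.18 (NaJa-D, DMSO). The share of higher calls went from 52.9 to 66.5% and from 49.4 to 59.9% between those lines, from 52.8 to 63.6% for encorafenib in NaJa-D at day 1, over time in DMSO from 47.4 to 81.7%, 58.1 to 78.6% and 50.6 to 62.4% (NaJa-D, -F and -G), over time in encorafenib from 46.7 to 75.0%, 45.1 to 69.7% and 50.2 to 61.8%, and for responses against NaJa-D from 51.0 to 34.7% (NaJa-F, day 1), 55.5 to 40.2% (NaJa-G, day 1) and 64.3 to 51.4% (NaJa-G, day 5). Depth limited Mertk and Pros1, with 22 and 13 counts in their lowest libraries.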
